A study of Mus musculus with 11 samples.

Results

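The comparison of day 2 with day 1 covers the second day of induced reprogramming of mouse fibroblasts towards pluripotent cells, and rests on 2 of the 11 small RNA libraries of the series, 1 per day. Both libraries came from secondary mouse embryonic fibroblasts (MEF) carrying a doxycycline-inducible cassette for OCT4, KLF4, SOX2 and MYC (OKSM), collected 1 and 2 days after doxycycline. All groups compared here share the genotype Mbd3f/-: of the 2 alleles of Mbd3, which encodes a NuRD repressor component, 1 is floxed and the other deleted. No group with intact Mbd3 stands beside them. The uninduced MEF and the day 3 library, of the same genotype, were used for the steps before and after. The later libraries enter only the filter on low values, the rescaling and the plotted courses. Among them, the ESC library is labelled Mbd3f/- while its column is named for the V6.5 line. Per the labels, feeders (irradiated human foreskin fibroblasts) were used only from day 3 onwards. The culture started in medium with serum and LIF, at 5% oxygen. The sources give different times for the inhibitors of MEK and GSK3 (48 hours, where indicated, or day 3.5), so whether the day 2 cells had met them is not settled. With 1 library per stage there is no spread between cultures: no test was made, and "higher" and "lower" describe these 2 libraries.

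MicroRNAs (miRNAs) are short RNAs cut from hairpin precursors. They lower the output of messenger RNAs that pair with their seed, bases 2 to 8 of the mature strand, so hairpins with the same seed are expected to share targets. Pluripotent mouse cells are known for the miR-290 and miR-302 clusters, whose shared seed promotes the short cell cycle of these cells and helps reprogramming, while fibroblasts are known for miR-21, miR-143, miR-145, miR-199 and miR-214. Fibroblasts that reprogramme also pass through an early mesenchymal-to-epithelial change, in which the miR-200 family and miR-205 restrain the repressors ZEB1 and ZEB2.

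Mature strands of the miR-290 and miR-302 hairpins are printed first because their seeds group them, from RefSeq on GRCm38.p6, with the seed in capitals. Not every strand was matched in RefSeq, and the 3p strands of Mir292 and Mir302a are among those missing. The matched 3p strands of Mir293, Mir302c and Mir367 carry other seeds and are not printed. The deposited values belong to whole hairpins and do not say which arm was sequenced. The first 7 strands, of miR-290 and miR-302 hairpins, carry the seed AAGUGCU or one that differs from it in the last base only, and the 5p arms of Mir290, Mir292 and Mir293 share a second seed.
mmu-miR-291a-3p: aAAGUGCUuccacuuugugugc
mmu-miR-294-3p: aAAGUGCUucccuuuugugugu
mmu-miR-295-3p: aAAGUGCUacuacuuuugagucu
mmu-miR-302b-3p: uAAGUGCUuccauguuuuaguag
mmu-miR-302d-3p: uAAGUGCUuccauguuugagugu
mmu-miR-291b-3p: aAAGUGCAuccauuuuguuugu
mmu-miR-290a-3p: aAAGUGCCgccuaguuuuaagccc
mmu-miR-290a-5p: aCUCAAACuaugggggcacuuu
mmu-miR-292a-5p: aCUCAAACugggggcucuuuug
mmu-miR-293-5p: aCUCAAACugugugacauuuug

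The next strands are those of the epithelial and muscle groups, in which related hairpins went opposite ways, and of the fibroblast miRNAs that were lower. The chromosome 4 hairpins Mir200b and Mir429 share their seed with Mir200c of chromosome 6, which had too few reads to be placed. Mir200a shares its seed with Mir141 of chromosome 6, which was lower.
mmu-miR-200b-3p: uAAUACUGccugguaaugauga
mmu-miR-429-3p: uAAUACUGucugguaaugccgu
mmu-miR-200c-3p: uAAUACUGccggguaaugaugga
mmu-miR-200a-3p: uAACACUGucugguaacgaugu
mmu-miR-141-3p: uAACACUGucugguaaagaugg
mmu-miR-205-5p: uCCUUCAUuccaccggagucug
mmu-miR-203-3p: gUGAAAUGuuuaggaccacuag
mmu-miR-499-5p: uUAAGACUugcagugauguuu
mmu-miR-208b-3p: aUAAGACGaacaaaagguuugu
mmu-miR-199a-3p: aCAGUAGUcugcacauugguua
mmu-miR-214-3p: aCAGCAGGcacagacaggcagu

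Values are the deposited FPKM, in which fragment numbers are divided by the length of the transcript and by the size of the library. Differences were taken on log2(FPKM + 10), which understates the change of low transcripts. Of 3859 genes, 1419 had a mean of at least 10 FPKM over the 11 libraries, and 1413 of these had a usable value on both days. Most low values lay near whole multiples of the worth of 1 read, which gave about 12400000 mapped reads for day 1 and 13600000 for day 2 under an assumed fragment length. For an 80 nt transcript 1 read was then worth 46.2 FPKM on day 1 and 42.1 on day 2. The counting intervals below are 95% intervals of these reads and cover counting error only.

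Of the 1413 transcripts, 175 (12.4%) were at least 4-fold higher on day 2 and 90 (6.37%) at least 4-fold lower. At 2-fold the counts were 410 higher (29%) and 216 lower (15.3%). The median difference over all 1413 was 0.18 on the log2 scale. The share of all transcripts that were higher or lower by any amount was not counted. Counts of list members simply higher or lower therefore have only this median beside them. Rescaling the libraries by median ratios took 0.23 from the difference of an abundant transcript and gave 148 higher (10.5%) and 105 lower (7.43%). Most calls were of rare transcripts: 107 of the 175 higher were at 0 FPKM on day 1, and 61 of the 90 lower were at 0 on day 2. Among the 629 transcripts with at least 1000 FPKM on either day, 27 (4.29%) were at least 4-fold higher and 15 (2.38%) at least 4-fold lower, and 23 and 15 were so on both scalings.

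**Figure D1:**
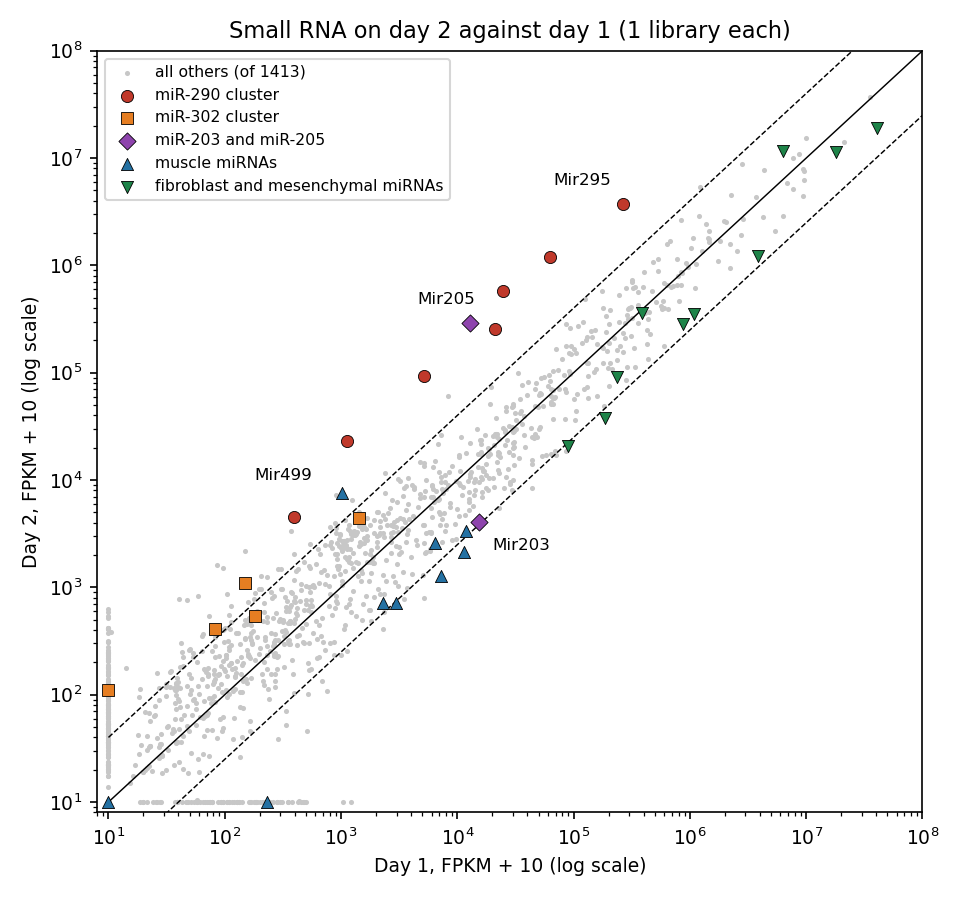
FPKM + 10 on day 1 (horizontal, log scale) and day 2 (vertical, log scale) for 1413 transcripts, 1 library per day, with 5 lists in colour, a solid line at equal values and dashed lines at 4-fold. The 7 miR-290 hairpins and Mir205 stand above the upper dashed line, 4 muscle hairpins, Mir145 and Mir214 below the lower, and transcripts at 0 line the edges.

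The miR-290 cluster, the most abundant miRNA cluster of mouse embryonic stem cells, stood highest. Its 7 hairpins lie within chr7:3218626-3220841 (mm10, plus strand), and all but Mir290 overlap an annotated exon of Nlrp12 on the opposite strand. All 7 were at least 4-fold higher on day 2 on both scalings, against 12.4% of all transcripts. Their median difference was 4.16 on the log2 scale, or 3.93 rescaled, and their summed FPKM went from 381077 to 5858550. Under the read model the cluster took 0.0876% of the reads in the table on day 1 and 1.60% on day 2.

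Mir295, the most abundant of the cluster, stood at 265541 FPKM on day 1 and 3706300 on day 2, 14.0-fold higher (counting interval 13.5 to 14.4). Mir292 went from 62932 to 1201450 FPKM, 19.1-fold higher. Mir293 went from 24915 to 572679 FPKM, 23.0-fold higher and the furthest of the 23 transcripts that passed the abundance limit and both scalings. The order by abundance of these 3 hairpins was the same on both days.

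Mir291a stood at 21006 FPKM on day 1 and 258247 on day 2, 12.3-fold higher. Mir294 went from 5178 to 92488 FPKM, 17.9-fold higher. Mir290 went from 1122 to 22915 FPKM, 20.4-fold higher (13.9 to 31.3). Mir291b, the rarest, had 8 reads on day 1 and 102 on day 2, or 383 and 4470 FPKM, 11.7-fold higher (5.68 to 27.7). The folds of the 7 thus ran from 11.7 to 23.0.

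The steep part of the cluster's course lay in the first 2 days. Its median difference was 4.37 from MEF to day 1, 4.16 from day 1 to day 2 and 0.84 from day 2 to day 3. These steps share the day 1 and day 2 libraries, so they are not independent. In MEF, Mir295 was at 15865 FPKM and Mir291b was listed at 0. On day 3 Mir295 stood at 8752670 FPKM, while Mir292 stood at 1282100, close to its day 2 value.

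**Figure D2:**
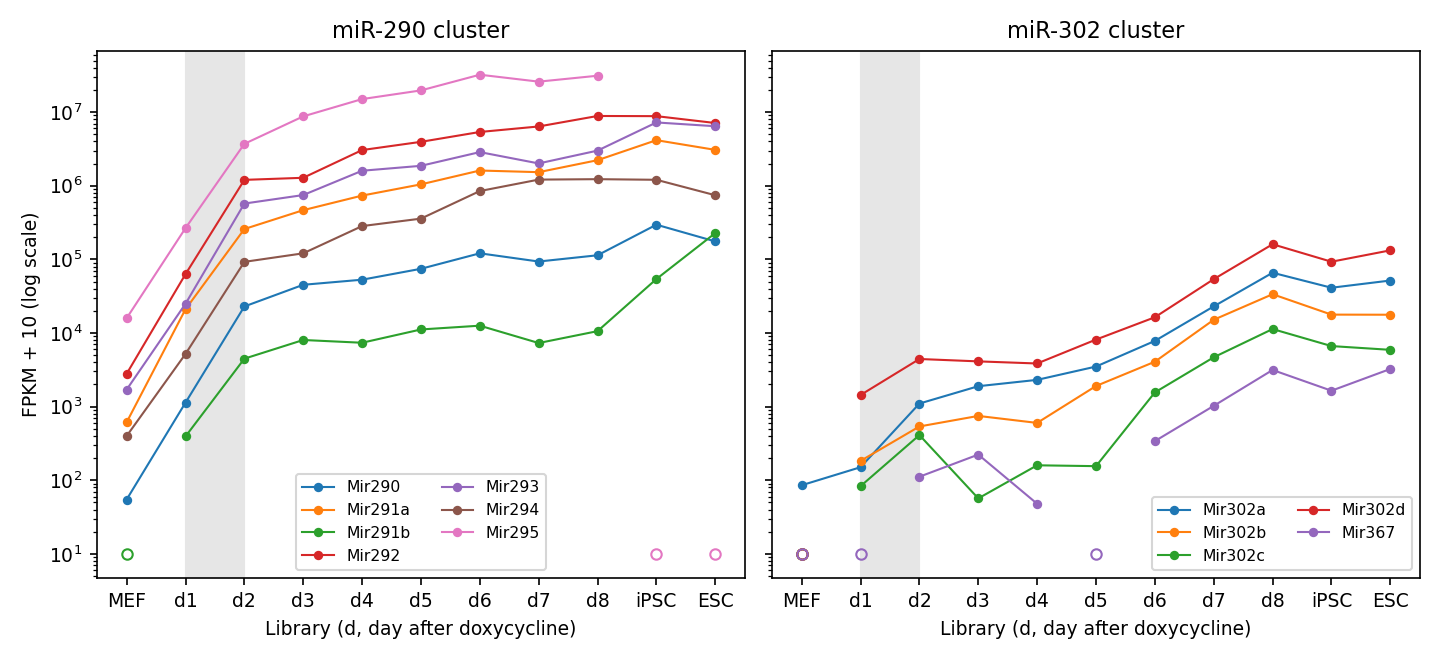
FPKM + 10 (log scale) of the miR-290 hairpins (left) and the miR-302 hairpins (right) in all 11 libraries, 1 per stage, with the step from day 1 to day 2 shaded and values listed at 0 drawn as open circles at the bottom and left out of the lines. The miR-290 lines are steepest up to day 2 and flatter after it; Mir295 is listed at 0 in iPSC and ESC after 31201600 FPKM on day 8.

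The miR-302 cluster was far rarer. Among the 3p strands matched, those of Mir302b and Mir302d carry the seed AAGUGCU, that of Mir302c AGUGCUU and that of Mir367 AUUGCAC. The 3p strand of Mir302a was not matched, so its seed is not given here. The 5 hairpins of the cluster lie in an intron of Larp7 on the opposite strand of chromosome 3. All 5 were higher on day 2 and 3 of 5 at least 4-fold (12.4% of all transcripts), with a median of 2.31, yet these differences rest on few reads. Mir302d, the most abundant, had 18 reads on day 1 and 61 on day 2, or 1428 and 4424 FPKM, 3.10-fold higher, with counting intervals of 10.7 to 28.5 and 46.7 to 78.4 reads. Mir302a had 2 and 17 reads, 7.77-fold (1.84 to 69.2). Mir302b had 3 and 10 reads, 3.05-fold (0.783 to 17.2), and Mir302c had 1 and 6, 5.49-fold (0.664 to 252). Mir367, the fifth hairpin of the cluster, had 0 and 2 reads. For Mir302b, Mir302c and Mir367 a difference was therefore not detectable at this depth, and of the 3 at 4-fold only Mir302a had an interval above 1. The summed FPKM of the cluster on day 2 was 6545, against 5858550 for the miR-290 cluster.

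Of the 1738 mature strands in the RefSeq set used, 8 (0.460%) carried AAGUGC at bases 2 to 7, and the hairpins of all 8 were in the tested set. They were 5 of the miR-290 cluster, Mir302b, Mir302d and Mir350. Of these 8, 7 were at least 2-fold higher (29% of all transcripts) and 5 at least 4-fold higher (12.4%), and all 7 belong to the 2 clusters. Among the 25 seeds carried by at least 3 hairpins at 1000 FPKM, the highest medians were 4.34 for CUCAAAC (Mir290, Mir292 and Mir293) and 3.71 for AAGUGCU (Mir291a, Mir294, Mir295 and Mir302d). The lowest was -1.63, for CAGUAGU of the miR-199 hairpins. The 3p strands of Mir292 and Mir302a were not matched, so these counts and groups by seed can leave those hairpins out. Hairpins of a shared seed are often of 1 cluster or are near-identical copies, so they are not separate observations.

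The miR-17-92 relatives, which promote proliferation, were higher by smaller steps. The miR-106a-363 cluster of the X chromosome was higher in 6 of 6 hairpins, none by 4-fold, with a median of 1.63. Mir92-2, its most abundant hairpin, stood at 282617 FPKM on day 1 and 612267 on day 2, 2.17-fold higher. Mir106a went from 2398 to 7487 FPKM, 3.12-fold higher (2.06 to 4.93), with Mir18b, Mir20b and Mir363 between 3.09-fold and 3.23-fold. Mir19b-2 was 1.18-fold higher. Mir92-2 and Mir19b-2 give the same miR-92a-3p and miR-19b-3p as Mir92-1 and Mir19b-1 of the miR-17-92 cluster, which were listed at 0 on day 2. Reads could be assigned differently on the 2 days, and the part of this in their differences was not tested.

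The miR-106b-25 cluster of Mcm7, a replication helicase gene, was higher in 3 of 3 hairpins with a median of 0.94. Mir25 went from 1199150 to 2900340 FPKM, 2.42-fold higher, Mir93 was 1.91-fold higher and Mir106b 1.61-fold. The 6 hairpins of the miR-17-92 cluster itself, in Mir17hg at chr14:115043671-115044506, were all listed at 0 on day 2. Mir92-1 had 25639000 FPKM on day 1 and 22286300 on day 3. The 6 held 7.75% of the reads in the table on day 1. The day 2 values were treated as missing, and no difference is given for this cluster.

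The miR-183 cluster, known from sensory and pluripotent cells, was higher in 3 of 3. Mir182 went from 2807750 to 8745310 FPKM, 3.11-fold higher, and Mir183 from 1217210 to 5343820, 4.39-fold higher as deposited but under 4-fold after rescaling. Mir96 went from 3176 to 9773 FPKM, 3.08-fold higher.

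Epithelial miRNAs did not move together. Mir205, of keratinocytes and other stratified epithelia, lies in an exon of the long noncoding RNA 4631405K08Rik at chr1:193507463-193507530. It stood at 12933 FPKM on day 1 and 288255 on day 2, with 178 and 4346 reads, and was 22.3-fold higher (19.2 to 26.0). In MEF it had stood at 19429 FPKM, and on day 3 it stood at 208902, so the large step was that of day 2. Mir203, which promotes keratinocyte differentiation, went the other way, from 15467 to 4013 FPKM, 3.85-fold lower (3.03 to 5.02).

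In the miR-200 family the chromosome 4 hairpins were higher, and Mir141 of chromosome 6 was lower. On chromosome 4, Mir200b went from 2360 to 11508 FPKM, 4.88-fold higher (3.40 to 7.24). Its neighbour Mir429 went from 1081 to 4256 FPKM, 3.94-fold higher (2.55 to 6.27), and Mir200a from 1147 to 3476, 3.03-fold higher. On chromosome 6, Mir141 went from 18575 to 10544 FPKM, 1.76-fold lower (1.46 to 2.13). Mir200c, with 7 and 5 reads, could not be placed (459 and 300 FPKM). All 5 hairpins had been lower on day 1 than in MEF, where Mir200b stood at 4304 FPKM and Mir141 at 42811.

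**Figure D3:**
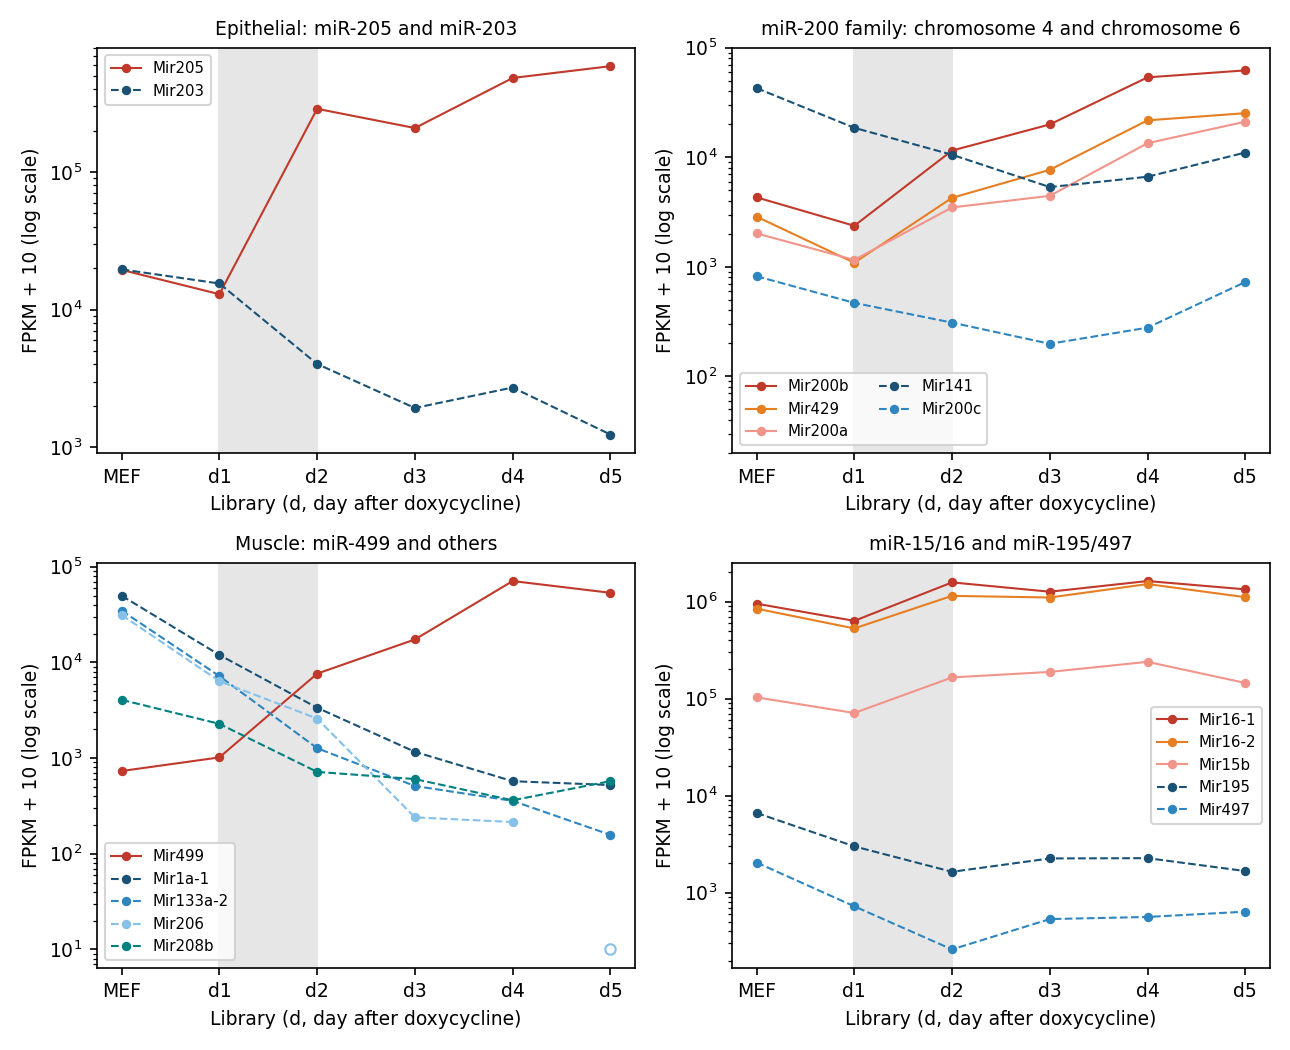
FPKM + 10 (log scale) from MEF to day 5, 1 library per stage, for 4 groups whose hairpins went opposite ways from day 1 to day 2 (shaded); solid lines were higher and dashed lines lower on day 2, and the open circle is a value listed at 0. Mir205, the chromosome 4 miR-200 hairpins, Mir499 and the miR-15 and miR-16 hairpins turned up on day 2, while Mir203, Mir141, the other muscle hairpins drawn, Mir195 and Mir497 went down. Mir200c, also dashed, had too few reads to be placed.

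Muscle miRNAs mark skeletal and cardiac muscle cells, and a MEF culture can hold myogenic cells. Of 9 hairpins, 7 were lower on day 2, 4 of them at least 4-fold (6.37% of all transcripts), 1 was higher and Mir208a was at 0 on both days. The median was -1.83, close to -1.94 from MEF to day 1. Mir1a-1 went from 11964 to 3348 FPKM, 3.57-fold lower, having stood at 49796 in MEF. Mir133a-2 went from 7181 to 1259, 5.70-fold lower, Mir133a-1 from 11374 to 2120, 5.37-fold lower, and Mir1b from 2983 to 705, 4.23-fold lower. Mir1b is antisense to Mir1a-2, and without a stated use of strand their reads cannot be told apart. Mir206, specific to skeletal muscle, went from 6356 to 2577 FPKM, 2.47-fold lower. Mir208b, in an intron of the slow myosin gene Myh7, was 3.21-fold lower. Mir133b had 16 reads on day 1 and was listed at 0 on day 2. In bulk RNA, fewer cells of a type and less of the RNA per cell cannot be told apart.

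Mir499 was the exception. It lies in an intron of Myh7b, another slow myosin gene, and stood at 1006 FPKM on day 1 and 7625 on day 2, with 21 and 175 reads, 7.58-fold higher (4.82 to 12.6). It had 722 FPKM in MEF and 17366 on day 3. The seed of miR-499-5p differs from that of miR-208b-3p in the last base only.

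The fibroblast and mesenchymal miRNAs, which check the cell type of the labels, were abundant on both days and mostly lower on day 2. Of 10, 9 were lower, 7 by at least 2-fold (15.3% of all transcripts) and 2 by at least 4-fold (6.37%), with a median of -1.49 (-1.71 rescaled). The same list had a median of -0.56 from MEF to day 1 and 0.46 from day 2 to day 3. The day 3 library is the first with human feeder fibroblasts, whose part in its values was not tested.

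Mir145, which acts in smooth muscle and represses pluripotency genes in differentiating cells, went from 187971 to 37886 FPKM, 4.96-fold lower (4.54 to 5.42). Its neighbour Mir143, the most abundant miRNA of day 1, went from 40549900 to 19230200, 2.11-fold lower. Mir214, of the Dnm3os transcript, went from 89741 to 20652 FPKM, 4.35-fold lower (4.08 to 4.62). Mir199a-2, on the same transcript, was 3.09-fold lower, and Mir199a-1, at another locus, went from 3825850 to 1217590, 3.14-fold lower. The 2 miR-199a hairpins give identical mature strands, so reads could be shared between them. Mir21 went from 18102000 to 11504600 FPKM, 1.57-fold lower. Mir27b was the only member that was higher, at 6348120 and 11601200 FPKM, 1.83-fold.

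**Figure D4:**
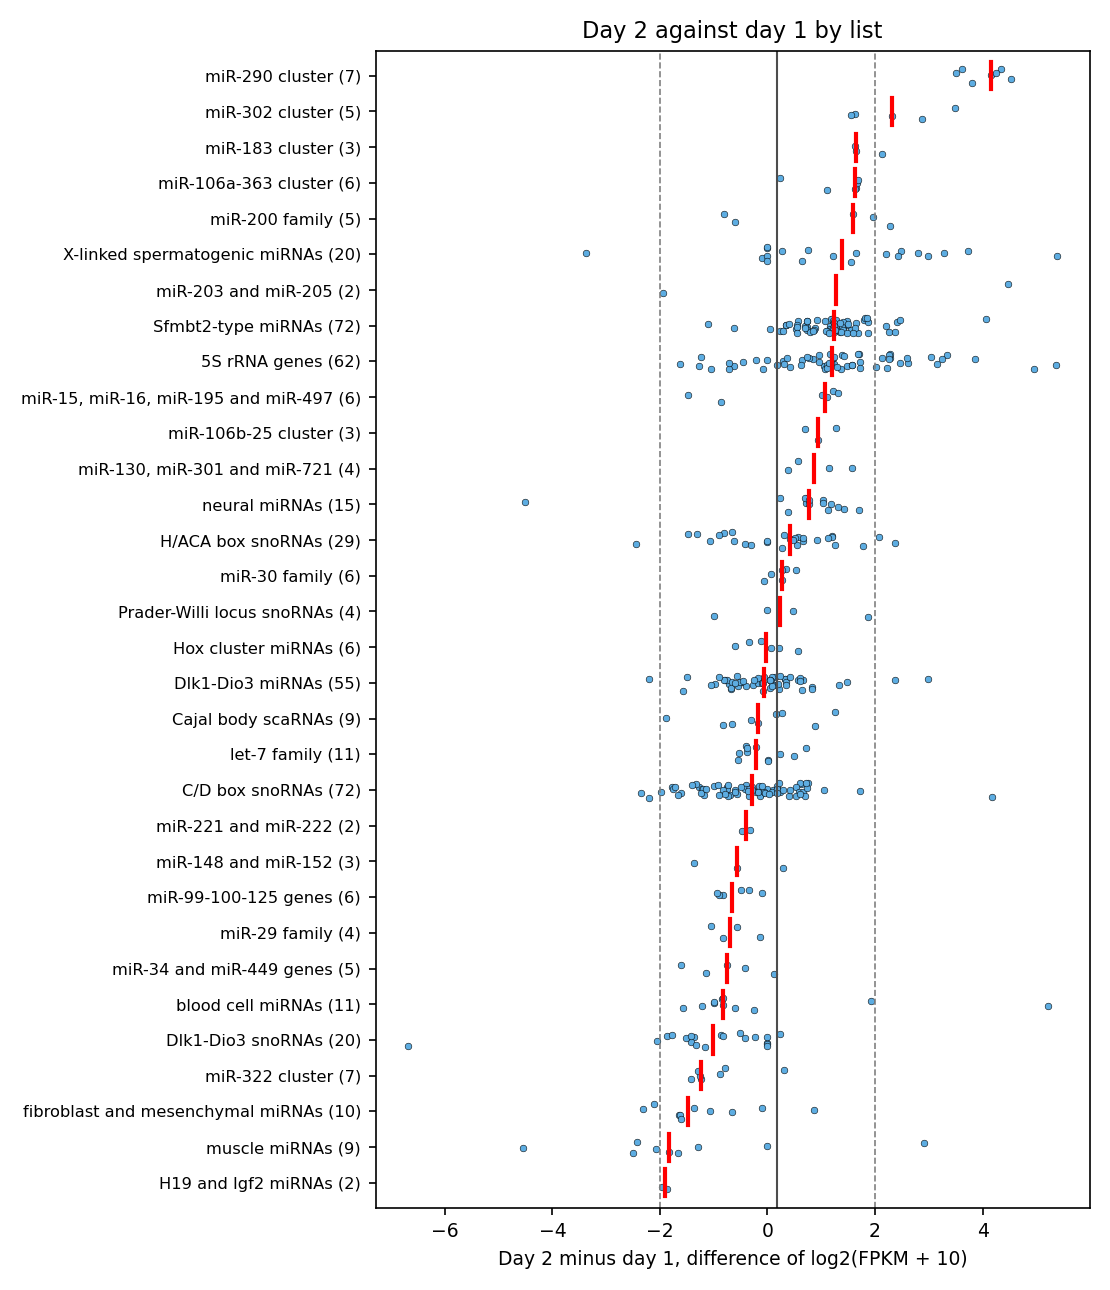
Difference of log2(FPKM + 10), day 2 minus day 1, for each member (points) of the lists with at least 2 members, with the list median in red, the number of members in brackets, the median of all 1413 transcripts as a solid line and 4-fold as dashed lines. The miR-290 median lies at 4.16, and the fibroblast and muscle medians lie at -1.49 and -1.83.

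Of the differentiation miRNAs, the let-7 family, which restrains proliferation and pluripotency genes, was near the background, with a median of -0.21, 5 hairpins higher and 6 lower (3 and 8 rescaled). Mirlet7i, the most abundant, went from 6819220 to 5910450 FPKM. The miR-99, miR-100 and miR-125 hairpins were lower in 6 of 6, with a median of -0.67, Mir100 1.92-fold. The miR-29 family, which targets collagens, was lower in 4 of 4 with a median of -0.70.

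The cell-cycle miRNAs were divided. The miR-322 cluster of the X chromosome was lower in 6 of 7, with a median of -1.23, and Mir351 went from 2202510 to 935868 FPKM. Of the miR-15 and miR-16 relatives, which restrain cyclins and share the seed AGCAGCA, 4 of 6 were at least 2-fold higher (29% of all transcripts). Mir322, of the miR-322 cluster, carries the same seed and was lower, at 122575 FPKM on day 1 and 71075 on day 2. Mir16-1 of Dleu2 went from 633752 to 1579130 FPKM, 2.49-fold, and Mir16-2 of Smc4 from 529483 to 1147200, 2.17-fold. These hairpins give the same miR-16-5p, so reads could be shared between them. Mir195 went from 2994 to 1632 FPKM, 1.83-fold lower, and its neighbour Mir497 from 714 to 250, 2.85-fold lower. Mir301b, of the miR-130 relatives, was 2.98-fold higher, with 4 of 4 of that list higher.

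Markers of blood, endothelial and neural cells were present on both days, except Mir144 on day 1 and Mir137 on day 2. Blood cell miRNAs were lower in 9 of 11, with a median of -0.83. Of the 11, 3 were at least 2-fold lower (15.3% of all transcripts) and 0 at least 4-fold lower (6.37%). At the other end, 2 were at least 2-fold higher (29%) and 1 at least 4-fold higher (12.4%). Their summed level was 5522550 FPKM on day 1 and 3500510 on day 2. Most of this sum was Mir146, at 4241610 and 2801780 FPKM, so it mainly follows that hairpin. Mir223, of myeloid cells, went from 16297 to 6971 FPKM, and Mir486, of red cells, from 335969 to 113384. Mir150, of lymphocytes, went the other way, from 19600 to 74185 FPKM, 3.78-fold higher. Mir144, of red cells, was listed at 0 on day 1 and had 5 reads on day 2, or 363 FPKM. Mir126, of endothelium, was at 21468 and 27083 FPKM. Neural miRNAs were higher in 14 of 15 with a median of 0.78, Mir124a-1 going from 2028 to 5057 FPKM. Mir7-2, the most abundant of that list on both days, went from 244459 to 534563 FPKM. Of the 15, 7 were at least 2-fold higher (29% of all transcripts) and 0 at least 4-fold higher (12.4%), while 1 was at least 4-fold lower (6.37%). The part of such cells in the differences above was not tested.

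Imprinted loci differed among themselves. The 2 miRNAs of H19 and Igf2 were lower, Mir675 of H19 from 5049 to 1285 FPKM, 3.93-fold (2.70 to 5.92), and Mir483 of Igf2 from 64283 to 17656, 3.64-fold. The miR-466, miR-467, miR-669 and miR-297 hairpins, many of them in an intron of Sfmbt2, were higher in 70 of 72, with a median of 1.24. Of the 72, 48 were at least 2-fold higher (29% of all transcripts) and 6 at least 4-fold higher (12.4% of all transcripts), so the count at 4-fold was not above the background. These hairpins are near-identical copies, so reads may be split among them. Mir467e went from 3767 to 10499 FPKM, 2.79-fold higher. At the Dlk1-Dio3 locus the 55 miRNAs had a median of -0.07, while the 20 snoRNAs of the same locus had a median of -1.01, with 15 lower and 1 higher. AF357425, in Rian, went from 22870 to 5476 FPKM, 4.18-fold lower, and DQ267101, also in Rian, had 17 reads on day 1 and was listed at 0 on day 2.

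Small nucleolar RNAs (snoRNAs) guide chemical modification of ribosomal RNA. The 72 C/D box snoRNAs, guides of methylation, had a median of -0.29, with 25 higher and 47 lower, against 2.03 from MEF to day 1. Snord33, from an intron of the ribosomal protein gene Rpl13a, had 86387 FPKM on day 1 but 18818 on day 2, 4.59-fold lower, after 3718 in MEF. The H/ACA box snoRNAs, guides of pseudouridylation, had a median of 0.41 over 29. Gm23212, a snoRNA of Gas5 and among the 10 highest transcripts, went from 10023800 to 15336300 FPKM, after 368825 in MEF.

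The 5S rRNA genes showed a median and a sum of opposite direction. The median over 62 genes was 1.20, with 51 higher and 10 lower, but the summed FPKM went from 71508 to 48759. The largest part of the day 1 sum was n-R5s193, which went from 43574 to 14142 FPKM, 3.08-fold lower. These genes are copies of each other, so the split of reads among them is uncertain.

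**Figure D5:**
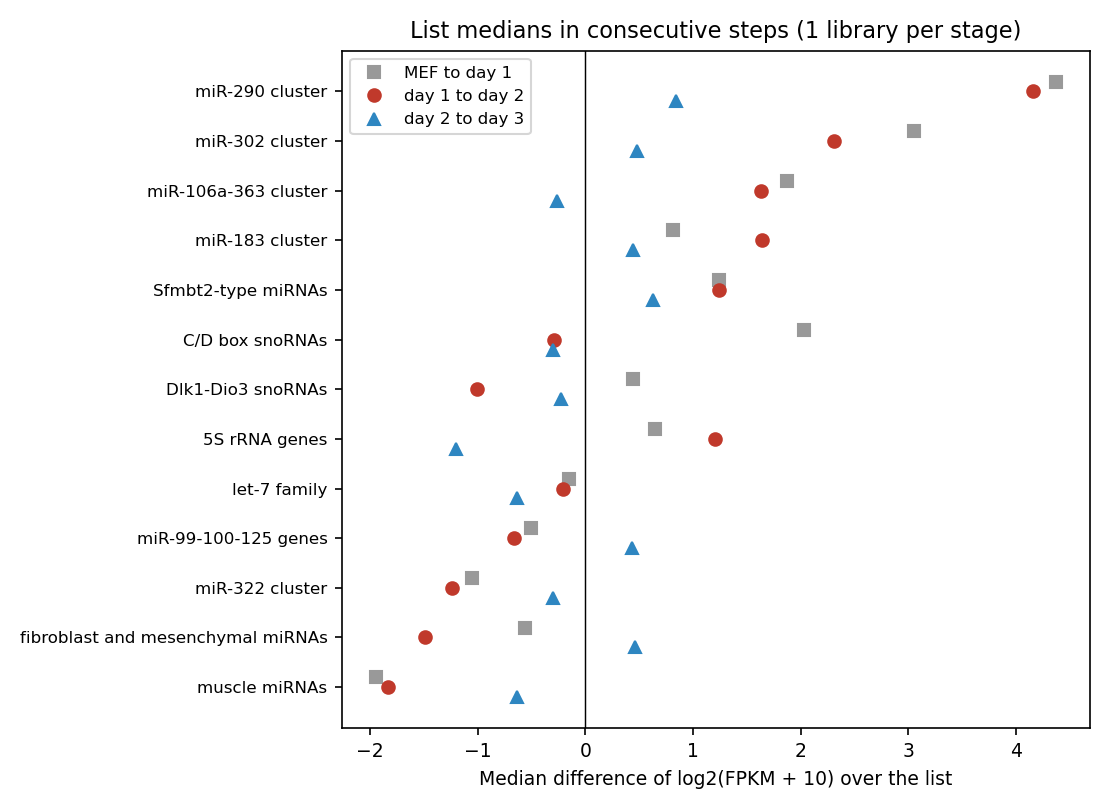
Median difference of log2(FPKM + 10) of 13 lists from MEF to day 1 (squares), day 1 to day 2 (circles) and day 2 to day 3 (triangles), 1 library per stage, with neighbouring steps sharing a library. The miR-290 median is near 4 in both early steps and 0.84 in the third, and the fibroblast median is lowest from day 1 to day 2.

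Among the 23 transcripts that passed the abundance limit and both scalings upwards, the 7 that lay within 10 kb of another of the 23 were the miR-290 cluster. Among the 15 downwards, 2 lay within 10 kb of another of the 15 (Mir133a-1 and Mir1b). Mir670 went from 358 to 3341 FPKM, 9.33-fold higher (5.47 to 17.0), and was at 794 on day 3. CT573030.1 had 1 and 23 reads (3.41 to 864 fold), and mmu-mir-6977, in an intron of Ptprs, had 1 and 19 (2.75 to 720). n-R5s209, a 5S copy, went from 139 to 2150 FPKM.

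Among those lower, Mir574, in an intron of Fam114a1, went from 43689 to 8408 FPKM, 5.20-fold (4.43 to 6.12), and stood at 54858 on day 3. Mir490, in an intron of Chrm2, a muscarinic receptor gene, went from 2288 to 404 FPKM, 5.67-fold, and stood at 17315 on day 3. Mir1298, in an intron of the serotonin receptor gene Htr2c, went from 3479 to 766 FPKM, 4.54-fold, and stood at 195 on day 3. The snoRNA Gm24598 went from 5136 to 792 FPKM, 6.49-fold. Gm22589, a snoRNA of Ddx39b, had 24 reads on day 1 and a value of almost 0 on day 2, and no fold is given.

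Set beside its neighbours, the step from day 1 to day 2 had fewer transcripts at least 4-fold higher than that from MEF to day 1, with 300 higher (21.2%) and 92 lower (6.52%) of 1412. From day 2 to day 3, with the feeders, 98 (6.94%) were higher and 128 (9.06%) lower. Rescaling changed the first of these to 218 (15.4%) and 171 (12.1%) and the second to 102 (7.22%) and 106 (7.5%). The steps share libraries, and the differences between their counts were not tested.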

How the data were processed

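Small RNA libraries were made from total RNA with the TruSeq small RNA kit and size-selected on a gel, per the labels' protocols. The authors deposited FPKM per small RNA gene in 11 columns, 1 library per stage. Cufflinks 2.2.1, Bowtie2 2 and CASAVA 1.8.2 and the build mm10 are listed without roles, per the submitters' processing notes. Annotation and handling of multiply matching reads: not given in the sources used here.

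GENCODE vM21 supplied coordinates (142 of 3859 gene IDs were not in it), and 659 of 895 tested miRNA genes matched a RefSeq mature strand. Differences were taken on log2(FPKM + 10) for transcripts with a mean of at least 10 FPKM, as deposited and rescaled by median ratios over the 783 transcripts above 0 in all 11 libraries. Reads were recovered from FPKM with an effective length for fragments of 200 ± 80 nt and the depth at which values below 200 FPKM were nearest to whole reads. Between 0.5 and 5.5 reads, 93.6% of 298 values on day 1 and 91.0% of 346 on day 2 were whole within 0.05 read, but the depth was fitted on these values. Intervals are exact Poisson and conditional binomial at 95%. No count test was run, since each stage has 1 library. The 6 miR-17-92 values listed at 0 on day 2, and 7 such values in MEF, were treated as missing. The depth fit and the 4-fold calls were run on simulated Poisson counts built with the same assumed effective length. That run held no shared reads, failed values or spread between cultures, so it checks the calculation only.

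Named transcripts were the 12 furthest in each direction with at least 1000 FPKM on either day and 4-fold on both scalings, every member of 7 lists, the most abundant and up to 4 furthest members of each other list, and the 10 highest on either day. Mir195 was named after its values were seen. Members and lists were chosen with earlier results of these data known. Python 3.11.15, pandas 2.3.3, numpy 2.4.6, scipy 1.17.1 and matplotlib 3.10.9 were used.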

Additional observations from a re-analysis of the deposited data

How the results depend on the processing

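With 1 library per stage no library could be left out, and depth limited transcripts below about 10 reads. No paired analysis was possible because each stage has 1 library and the labels carry no replicate numbers. The counts of 175 higher and 90 lower at 4-fold became 43 and 24 with a pseudocount of 100, 82 and 42 with a mean of at least 100 FPKM, and 410 and 216 at 2-fold. They stayed within 1.5 times under 3 rescalings, a pseudocount of 1, no filter, and the day 2 zeros kept as 0. With a pseudocount of 100 the list medians moved from 2.31 to 1.53 for miR-302, from 1.38 to 0.64 for the X-linked spermatogenic miRNAs and from 1.20 to 0.54 for the 5S rRNA genes. The median of the Prader-Willi locus snoRNAs changed sign, from 0.24 to -0.25, with a mean of at least 100 FPKM. The cause of these changes was not tested. Of 160 named transcripts, a pseudocount of 1 moved 21 and of 100 moved 31 by more than 1.5-fold, and the rescalings moved 0.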

Other observations

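Outside the transcripts named by rule, and chosen after their values were seen, between day 1 and day 2 Mir135b went from 8329 to 60596 FPKM, Mir3078 from 895 to 7211, and Mir1968 from 1242 to 6548. The 20 X-linked spermatogenic miRNAs had a median difference of 1.38, with 14 higher and 2 lower, and a summed level of 4044 FPKM on day 1 and 8604 on day 2. Of the 20, 11 were at least 2-fold higher (29% of all transcripts) and 8 at least 4-fold higher (12.4%), while 1 was at least 4-fold lower (6.37%). Several rest on very few reads: Mir471 and Mir741 were at 0 FPKM on day 1 and at 70 and 59 on day 2. At 80 nt, 1 read was worth 42.1 FPKM on day 2. Mir881 of this list was at 0 FPKM on day 1 and had 9 reads on day 2.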
